A study of Mus musculus with 20 samples.

Results

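The RNA of 9 conjugation genes was followed in mouse liver over 20 RNA-seq libraries: 8 UDP-glucuronosyltransferase (UGT) genes, Ugt1a1, Ugt2a3, Ugt2b1, Ugt2b5, Ugt2b34, Ugt2b36, Ugt3a1 and Ugt3a2, and 1 sulfotransferase (SULT) gene, Sult1a1. They were taken by symbol from the 45306 genes of the deposited table, and all 9 were found and passed the filter on low counts. The libraries form 4 groups of 5 livers. Control mice were wild-type C57BL/6 mice at room temperature. CE mice were wild type and exposed to cold for some hours a day over several weeks. Sirt2-/- mice carried a whole-body CRISPR deletion of several exons of Sirt2, an NAD-dependent deacetylase, on the same background, and were not exposed to cold. Sirt2-/-/CE mice had both the deletion and the cold exposure. Sex and the hour of tissue collection were not given in the sources used here, and the libraries are numbered from 1 to 20 across the groups. Nothing in the labels ties a library to a named animal, so p-values measure the spread between these samples.

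UGTs sit in the membrane of the endoplasmic reticulum and join a sugar, usually glucuronic acid from UDP-glucuronic acid, to bilirubin, steroids, bile acids and drugs, so that these can leave in bile or urine. Cytosolic sulfotransferases do the same with a sulfate from PAPS, the active form of sulfate. UGT1A1 is the bilirubin enzyme of liver, UGT2B enzymes act mostly on steroids and bile acids, UGT3 enzymes use sugars other than glucuronic acid, and SULT1A1 sulfates small phenols.

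The genes lie at 4 places in the mouse genome (GRCm38, the assembly also called mm10, GENCODE vM21). Ugt1a1 lies on the plus strand at chr1:88211959-88218997, with 5 exons. Another 5 members lie on the minus strand of chromosome 5: Ugt2b34 at chr5:86889767-86906937, Ugt2b1 at chr5:86916638-86926530, Ugt2b36 at chr5:87065927-87092555, Ugt2b5 at chr5:87124960-87140318 and Ugt2a3 at chr5:87324972-87337195, each with 6 exons. Ugt3a1 at chr15:9276888-9315032 and Ugt3a2 at chr15:9335550-9370955 are neighbours on the plus strand, with 7 exons each. Sult1a1 lies on the minus strand at chr7:126672865-126676432, with 8 exons, and 61 of its 1507 exon bases overlap Sgf29 on the other strand. All 9 are protein coding.

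How far the reads of one gene can be told from those of another differs between the members. The 9 Ugt1a genes each have a first exon of their own and then 4 exons in common, so 1311 of the 2224 exon bases of Ugt1a1 (58.9%) are also exon bases of the 8 other Ugt1a genes. A noncoding gene on the other strand, Gm20528, covers 922 of them (41.5%). Past exon 1, Ugt1a1 and Ugt1a9 each hold 1311 bases, against 1318 in Ugt1a8 and Ugt1a10 and 2316 in Ugt1a7c. A read can point to Ugt1a1 or Ugt1a9 only through the first exon, 913 bases long in Ugt1a1 and 879 in Ugt1a9, and only where that exon differs between the genes. Ugt1a6a and Ugt1a6b share the last 24 bases of theirs, as do Ugt1a2 and Ugt1a5. Each line below holds the last 24 bases of exon 1 in lower case, at chr1:88212848-88212871 for Ugt1a1, chr1:88071655-88071678 for Ugt1a9, chr1:88107776-88107799 for Ugt1a6b and chr1:88166880-88166903 for Ugt1a5, and the first 24 bases of exon 2 in capitals, at chr1:88215044-88215067 for each of them.

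Ugt1a1: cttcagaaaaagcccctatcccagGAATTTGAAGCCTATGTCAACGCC
Ugt1a9: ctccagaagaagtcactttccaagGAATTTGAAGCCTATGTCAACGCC
Ugt1a6b: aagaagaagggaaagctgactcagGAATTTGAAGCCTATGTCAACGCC
Ugt1a5: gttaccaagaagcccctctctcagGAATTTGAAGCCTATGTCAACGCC

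Reads in the capital part fit every Ugt1a gene, and the way they were divided is not given in the sources used here. Ugt1a1 held 41.7 to 65.5% of the summed Ugt1a counts, and Ugt1a2 was listed between 0 and 87.9 CPM (counts relative to the TMM-scaled library total). On chromosome 5 the closest members are Ugt2b5 and Ugt2b36, whose coding sequences are 88.4% identical over 1590 bases. Their longest identical coding run is 52 bases, shown in lower case because no part of it differs, at chr5:87140246-87140297 in Ugt2b5 and chr5:87092464-87092515 in Ugt2b36.

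Ugt2b5 and Ugt2b36: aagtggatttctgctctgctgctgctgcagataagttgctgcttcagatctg

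Ugt2b5 is closer still to Ugt2b38, a gene outside the 9: 97.0% of 1590 aligned coding bases are identical, with a longest identical run of 443 bases, and Ugt2b38 held 5.25 to 11.1% of the counts of the pair. Ugt3a1 and Ugt3a2 are 93.2% identical over 1569 coding bases, with no identical run above 90. Ugt2a3 has 1 match of 179 bases at 95% identity or more, to Ugt2b34. No other gene matched the transcripts of Ugt2b1, Ugt2b36, Ugt3a1, Ugt3a2 or Sult1a1 at 95% identity over 150 bases or more.

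Most of the members are abundant liver transcripts. Together they took 0.323 to 0.528% of the counts of a library, and each was read at least 713 times in every library. Levels of different genes are compared here in FPKM, the length- and depth-scaled fragment values that were deposited beside the counts. Mean FPKM over the 20 mice was 459 for Ugt2b5, 329 for Ugt2b36, 244 for Ugt1a1, 224 for Ugt2b1, 222 for Sult1a1, 187 for Ugt2b34, 130 for Ugt2a3, 111 for Ugt3a2 and 28.5 for Ugt3a1. Ugt2b5 ranked first of the 9 in 17 mice, Sult1a1 in 2 and Ugt2b1 in 1, and Ugt3a1 ranked last in all 20. In this order, 3 steps were larger than their spread between mice (mean against SD of the log2 ratio within a mouse): Ugt2b5 over Ugt2b36 in 19 of 20 mice (0.46 ± 0.16), Ugt2b34 over Ugt2a3 in 19 (0.50 ± 0.34) and Ugt3a2 over Ugt3a1 in 20 (2.03 ± 0.37). The other 5 steps were not larger than that spread, though some held in most mice. Ugt2a3 was over Ugt3a2 in 18 of 20 mice (0.24 ± 0.29) and Ugt2b36 over Ugt1a1 in 16 (0.44 ± 0.48), while Ugt2b1 was over Sult1a1 in 11 (-0.02 ± 1.06). Of the UGT and SULT genes outside the 9, Sult2a8, at a mean FPKM of 335, reached the level of the upper members, and Ugt1a9, at 60.3, was the highest other UGT.

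**Figure D1:**
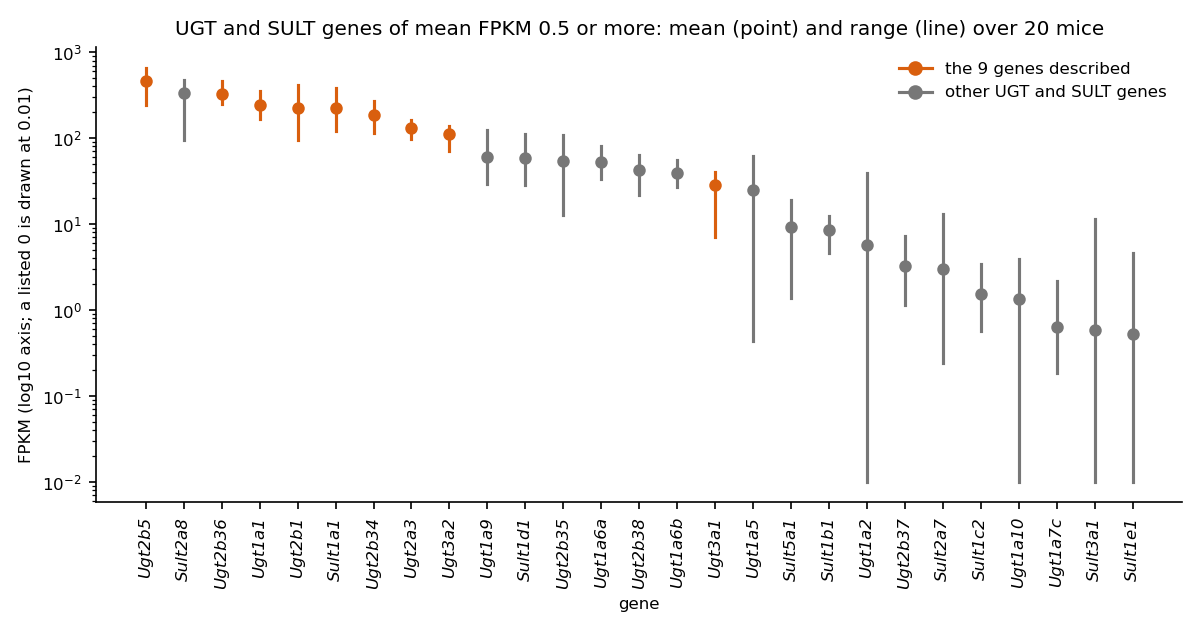
Mean FPKM (points) and range over 20 mice (lines) of the 27 UGT and SULT genes with a mean of 0.5 FPKM or more, on a log10 axis; a value listed at 0 is drawn at 0.01. The 9 genes described are orange, and 8 of them lie above every other UGT gene, with Sult2a8 between Ugt2b5 and Ugt2b36.

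Total counts ran from 35499796 to 53917339 per library. Hepatocyte markers (6 of 6 detected) summed to 76100 to 168000 CPM, and the kidney marker Slc12a1 and the muscle marker Ckm were at 0 in every library. The deletion takes out several exons of Sirt2, so reads of the other exons can still count for the gene. By immunoblot, the paper reports that Sirt2 protein was absent from knockout livers. Sirt2 RNA was 42.3 ± 1.30 CPM in Control, 46.6 ± 6.08 in CE, 22.0 ± 5.01 in Sirt2-/- and 21.6 ± 3.42 in Sirt2-/-/CE (SD, n = 5 each), lower in both deletion groups (log2 fold change -0.94, adjusted p = 0.0145, and -1.11, adjusted p = 0.0043, edgeR). The first did not pass without Sirt2-/- replicates 14 and 15 (-0.95, edgeR adjusted p = 0.129, with 0 of 16115 genes called) or with a clock score, described next, as a covariate (-0.85, edgeR adjusted p = 0.159). The second did not pass without Control replicate 3 and Sirt2-/-/CE replicate 20 (-1.11, edgeR adjusted p = 0.0658) or with only the 2 groups compared in the fit (-1.11, edgeR adjusted p = 0.0848). Some libraries stood apart. A male-type score, the mean centred log2 CPM of 8 genes that are higher in male liver, was -1.94 in Control replicate 3 and -3.34 in Sirt2-/-/CE replicate 20 and -0.95 or more elsewhere. A female-type score, the same mean over the 4 tested genes of a female-type list, was 4.31 and 5.5 in these libraries and 2.08 or less elsewhere. Transcripts of Y-linked genes were nevertheless present in all 20, and Xist was at 0.359 CPM at most. A clock score, the clock-output genes less Arntl, Npas2 and Clock, was -5.72 and -6.48 in Sirt2-/- replicates 14 and 15, -4.52 in CE replicate 9 and -4.69 in Sirt2-/-/CE replicate 19, against -0.81 to 3.36 in the other 16. Kupffer cell markers (6 of 6 detected) summed to 81.8 to 332 CPM in the wild-type groups and 183 to 377 in the deletion groups, and endothelial markers (4 of 4) to 23.9 to 140 and 57.5 to 163; their part in the results was not tested. In whole liver, fewer hepatocytes and less RNA per hepatocyte cannot be told apart.

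None of the 9 genes passed the test in any of the 7 comparisons. In CE against Control, 0 of 9 had an adjusted p under 0.05 in edgeR's quasi-likelihood test, against 0.0064% of the 15616 genes tested. The Sirt2-/- against Control comparison also gave 0 of 9, against 0.89%. For Sirt2-/-/CE against Sirt2-/- it was 0 of 9 against 0%, for Sirt2-/-/CE against CE 0 of 9 against 0.0128%, for the deletion averaged over both treatments 0 of 9 against 0.186%, for cold averaged over both genotypes 0 of 9 against 0% and for the interaction of deletion and cold 0 of 9 against 0%. DESeq2 and limma voom with sample quality weights also called 0 of 9 in each. At an unadjusted p under 0.05, edgeR gave 0, 1, 0, 1, 1, 0 and 0 members in these comparisons, in the same order, DESeq2 0, 1, 0, 1, 1, 0 and 0, and limma voom 0, 2, 0, 1, 3, 0 and 0. Over all genes tested, edgeR's shares at that threshold were 10.7%, 14.9%, 7.25%, 6.09%, 13.8%, 9.48% and 8.34%, DESeq2's 11.7%, 16.3%, 8.13%, 7.09%, 15.2%, 10.6% and 9.37%, and those of limma voom 20.8%, 23.1%, 6.44%, 7.97%, 18.9%, 14.1% and 13.3%. The comparisons share samples: Control enters 2 of the 4 comparisons of 2 groups, as do CE, Sirt2-/- and Sirt2-/-/CE.

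The intervals give the precision of each fold change, without adjustment for the number of genes, so that a change had to be larger than its half-width to pass the adjusted threshold. For the 4 comparisons of 2 groups, the half-width of the 95% interval of a member's log2 fold change ran from 0.27 for the narrowest to 0.75 for the widest, for the 2 averages from 0.19 to 0.53, and for the interaction from 0.38 to 1.06. By sign, 6 of 9 had positive fold changes in CE against Control (median 0.09, all genes -0.01), 3 in Sirt2-/- against Control (median -0.22, all genes 0.02), 4 in Sirt2-/-/CE against Sirt2-/- (median -0.03, all genes 0.01), 2 in Sirt2-/-/CE against CE (median -0.05, all genes 0.02) and 3 for the deletion averaged over treatments (median -0.18, all genes 0.02). Of all genes tested, 49%, 51.7%, 50.9%, 52.6% and 53.6% had positive fold changes in these comparisons, in the same order. Ranges that did not overlap between groups were found for 0 of 9 in CE against Control (3.04% of all genes), 0 in Sirt2-/- against Control (3.61%), 0 in Sirt2-/-/CE against Sirt2-/- (0.743%) and 1 in Sirt2-/-/CE against CE (1.22%), which was Ugt3a2.

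**Figure D2:**
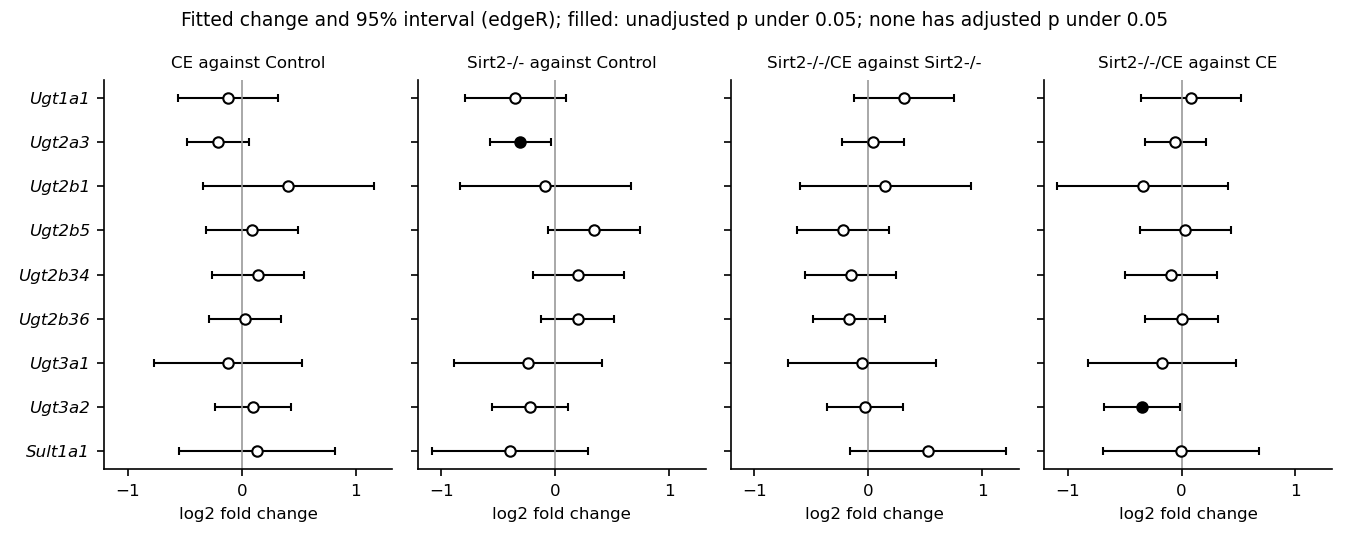
Fitted log2 fold change (points) and 95% interval (bars) of each gene in the 4 comparisons of 2 groups. Filled points have an unadjusted p under 0.05, Ugt2a3 in Sirt2-/- against Control and Ugt3a2 in Sirt2-/-/CE against CE; no gene has an adjusted p under 0.05.

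Ugt1a1, the bilirubin enzyme, was at 625, 809, 715, 514 and 431 CPM in Control replicates 1 to 5. CE livers had 719, 506, 597, 422 and 602 CPM, Sirt2-/- livers 648, 358, 521, 469 and 436, and Sirt2-/-/CE livers 558, 685, 522, 408 and 846. The groups overlapped throughout, and the lowest and highest of the 20 values both came from deletion livers. The Sirt2-/- against Control log2 fold change was -0.35 (95% interval -0.79 to 0.09, edgeR adjusted p = 0.468), and with the 9 Ugt1a genes summed to 1 row it was -0.24 (adjusted p = 0.432). The summed Ugt1a level was 796 to 1300 CPM.

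Of the members on chromosome 5, Ugt2b1, a steroid and drug UGT, varied most from mouse to mouse. Its values were 539, 709, 323, 614 and 612 CPM in Control, 774, 707, 476, 1120 and 628 in CE, 601, 740, 821, 250 and 221 in Sirt2-/- and 375, 596, 865, 790 and 297 in Sirt2-/-/CE. The 2 lowest values of all were those of Sirt2-/- replicates 14 and 15, and Control replicate 3 and Sirt2-/-/CE replicate 20 were the lowest of their groups. The SD of log2 CPM within groups was 0.64 for Ugt2b1, larger than that of 71% of all genes tested. In Sirt2-/- against Control its log2 fold change was -0.09 (95% interval -0.84 to 0.66, edgeR adjusted p = 0.944), and without Sirt2-/- replicates 14 and 15 it was 0.37 (adjusted p = 0.849).

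Ugt2b5, the most abundant member, was at 736, 833, 507, 831 and 1120 CPM in Control and at 752, 972, 1260, 1150 and 966 in Sirt2-/-. Its neighbour Ugt2b36 was at 516, 594, 502, 663 and 683 CPM in Control and at 484, 621, 850, 796 and 645 in Sirt2-/-. Both were lowest in the 20 livers or near it in Control replicate 3, and in both genes the Sirt2-/- and Control ranges overlapped. The log2 fold changes of Sirt2-/- against Control were 0.34 for Ugt2b5 (95% interval -0.06 to 0.74, edgeR adjusted p = 0.425) and 0.20 for Ugt2b36 (95% interval -0.12 to 0.52, edgeR adjusted p = 0.586). With cold, Sirt2-/-/CE against CE, the fold change of Ugt2b36 was 0.00 (95% interval -0.32 to 0.32). In CE the levels were 695 to 1070 CPM for Ugt2b5 and 553 to 699 for Ugt2b36, and in Sirt2-/-/CE 635 to 1050 and 489 to 729.

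Ugt2b34 ran from 397 to 632 CPM in Control, 479 to 770 in CE, 396 to 763 in Sirt2-/- and 460 to 785 in Sirt2-/-/CE. None of its 7 fold changes had an unadjusted p under 0.05, the nearest to it being the interaction (log2 fold change -0.30, 95% interval -0.87 to 0.27, unadjusted p = 0.286 by edgeR).

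Ugt2a3, of the UGT2A branch, was the steadiest member, with an SD of log2 CPM within groups of 0.18, larger than that of 6.08% of all genes tested. Control livers had 312, 327, 333, 346 and 326 CPM, CE livers 315, 308, 282, 294 and 225, Sirt2-/- livers 234, 271, 354, 261 and 212, and Sirt2-/-/CE livers 275, 278, 266, 249 and 304. Sirt2-/- replicate 13 was above every Control liver, and the other 4 Sirt2-/- livers were below all 5. The mean was 329 ± 12.1 CPM in Control and 266 ± 54.4 in Sirt2-/- (SD, n = 5 each), a log2 fold change of -0.30 (95% interval -0.57 to -0.03) with an unadjusted p of 0.0293 and an adjusted p of 0.268 by edgeR. Without Sirt2-/- replicates 14 and 15 it was -0.20 (adjusted p = 0.796), and without Sirt2-/- replicate 13, the high one, the adjusted p was 0.061, the lowest of any member under any alternative.

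Ugt3a1 and Ugt3a2, whose human counterparts use N-acetylglucosamine and glucose or xylose as the sugar, had their lowest values in the libraries that stood apart. Ugt3a1 was at 85.2, 88.2, 59.5, 66.7 and 66.5 CPM in Control, 63.2, 61.0, 62.0, 77.9 and 72.3 in CE, 70.6, 80.0, 84.0, 35.3 and 40.2 in Sirt2-/- and 46.5, 64.3, 85.7, 84.9 and 17.2 in Sirt2-/-/CE. The value of Sirt2-/-/CE replicate 20, from 713 counts, made the widest range of any member, 5.12-fold between the highest and lowest mouse. Ugt3a2 was at 290, 348, 248, 277 and 265 CPM in Control, 287, 296, 297, 312 and 338 in CE, 253, 282, 323, 179 and 189 in Sirt2-/- and 222, 262, 266, 275 and 178 in Sirt2-/-/CE. All 5 Sirt2-/-/CE livers lay below all 5 CE livers, the nearest at 275 against 287 CPM. The log2 fold change of Ugt3a2 between these groups was -0.35 (95% interval -0.68 to -0.01), with an unadjusted p of 0.0424 and an adjusted p of 0.785 by edgeR. Averaged over both treatments the deletion gave -0.28 (95% interval -0.52 to -0.05, unadjusted p = 0.0211 and adjusted p = 0.274 by edgeR), which without Sirt2-/- replicates 14 and 15 was -0.18 (adjusted p = 0.645). Without Control replicate 3 and Sirt2-/-/CE replicate 20, the Sirt2-/-/CE against CE value was -0.26 (unadjusted p = 0.12 by edgeR).

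Sult1a1, the phenol sulfotransferase, was at 209, 239, 438, 381 and 293 CPM in Control, 372, 430, 376, 195 and 339 in CE, 200, 156, 215, 304 and 311 in Sirt2-/- and 551, 273, 174, 162 and 543 in Sirt2-/-/CE. Both the lowest but one and the 2 highest values came from 1 group, Sirt2-/-/CE, whose SD of 193 CPM stood against a mean of 341 (n = 5). The log2 fold change was -0.40 in Sirt2-/- against Control (95% interval -1.08 to 0.29, edgeR adjusted p = 0.62) and 0.52 in Sirt2-/-/CE against Sirt2-/- (95% interval -0.16 to 1.21, edgeR adjusted p = 0.788). Without Sirt2-/- replicates 14 and 15 the first was -0.71 (adjusted p = 0.689).

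**Figure D3:**
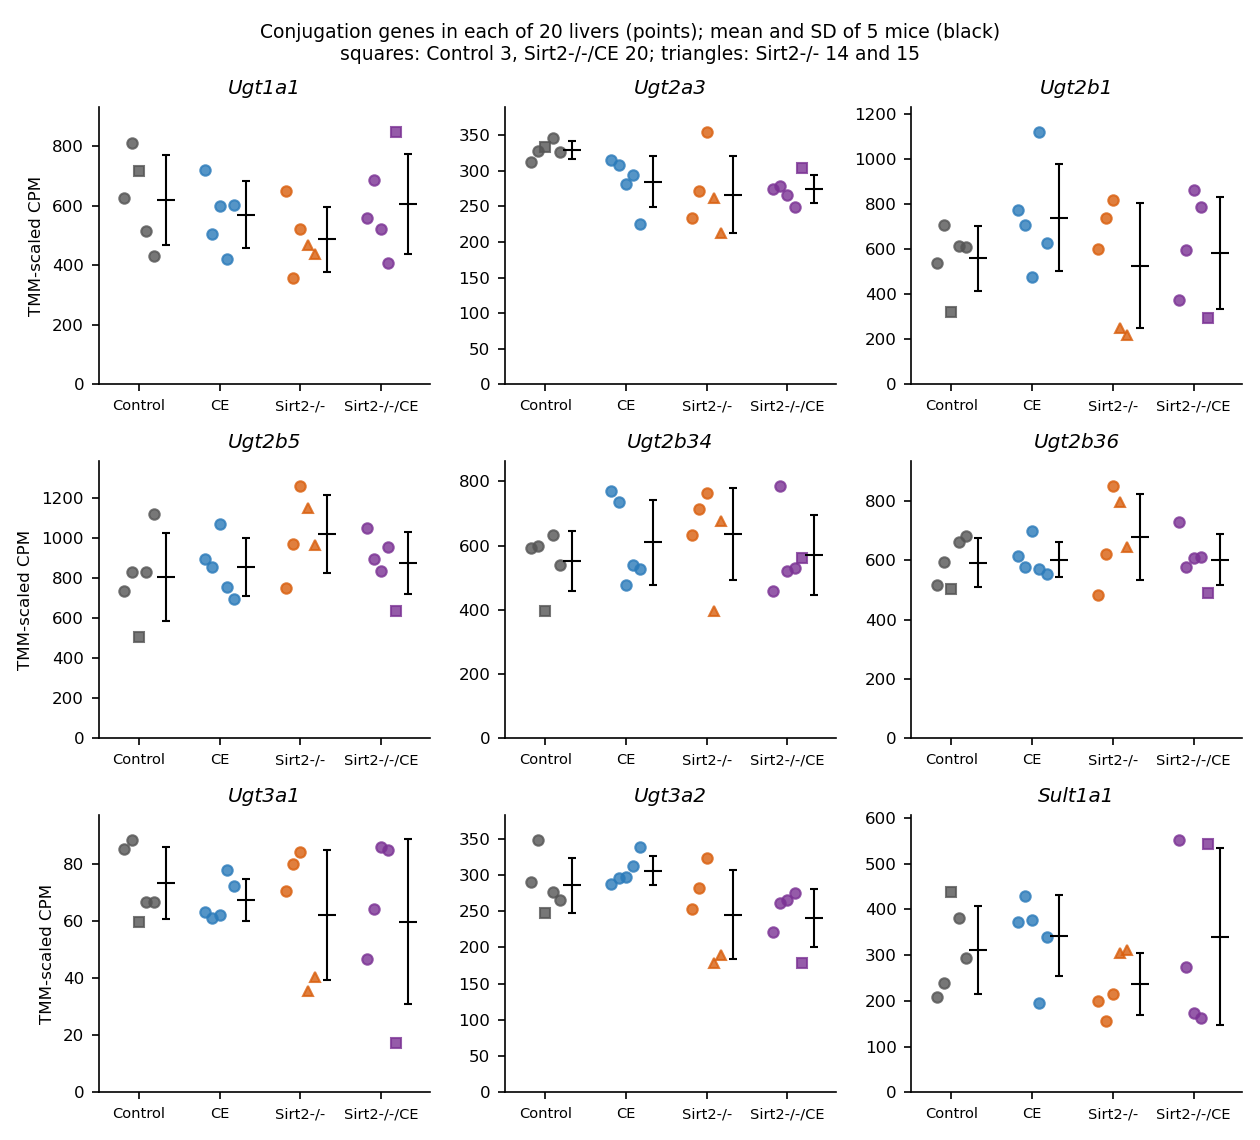
TMM-scaled CPM of the 9 genes in each of 20 livers (points), with the mean and SD of the 5 livers of a group (black). Squares mark Control replicate 3 and Sirt2-/-/CE replicate 20, and triangles Sirt2-/- replicates 14 and 15. The triangles and the square of the Sirt2-/-/CE group are the 3 lowest of the 20 values of Ugt2b1, Ugt3a1 and Ugt3a2.

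Over the 20 mice, members varied together in 2 sets. Correlations were taken on log2 CPM over the 20 libraries for the 36 pairs of members, with permutation tests adjusted over the 36, and both values of a pair come from the same library. Ugt2b5 and Ugt2b36 had r = 0.88 (rho 0.90, permutation p = 1e-05, the smallest the permutations can give, adjusted 0.00018), 0.89 without the 2 mice farthest from the median of Ugt2b5, and 0.88 within groups. The other set was Ugt2b1, Ugt3a1 and Ugt3a2. Ugt3a1 and Ugt3a2 had r = 0.84 (rho 0.66, permutation p = 1e-05, adjusted 0.00018), Ugt2b1 and Ugt3a2 r = 0.83 (rho 0.67, permutation p = 2e-05, adjusted 0.00024) and Ugt2b1 and Ugt3a1 r = 0.77 (rho 0.75, permutation p = 6e-05, adjusted 0.00054). Without the 2 farthest mice these 3 values were 0.76, 0.70 and 0.72, and within groups 0.88, 0.86 and 0.82.

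Sult1a1 had a negative r with Ugt2b1, Ugt3a1 and Ugt3a2, and the adjusted p was under 0.05 for 1 of the 3 by r and 2 by rho. Its r was -0.67 with Ugt3a1 (rho -0.77, permutation p = 0.00034, adjusted 0.00245 for r and 0.00216 for rho), -0.57 with Ugt2b1 (rho -0.59, permutation p = 0.00873, adjusted 0.0524 for r and 0.0417 for rho) and -0.38 with Ugt3a2 (rho -0.28, permutation p = 0.0996, adjusted 0.326 for r and 0.611 for rho). Within groups the values were -0.81, -0.79 and -0.69. Ugt1a1 had r = -0.51 with Ugt2b5 (rho -0.52, permutation p = 0.0207, adjusted 0.106). Of the 36 pairs, 5 had an adjusted p under 0.05 for r and 6 for rho, and 15 had a negative r. Ugt2b34 and Ugt2a3 were in none of the pairs with an adjusted p under 0.05.

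**Figure D4:**
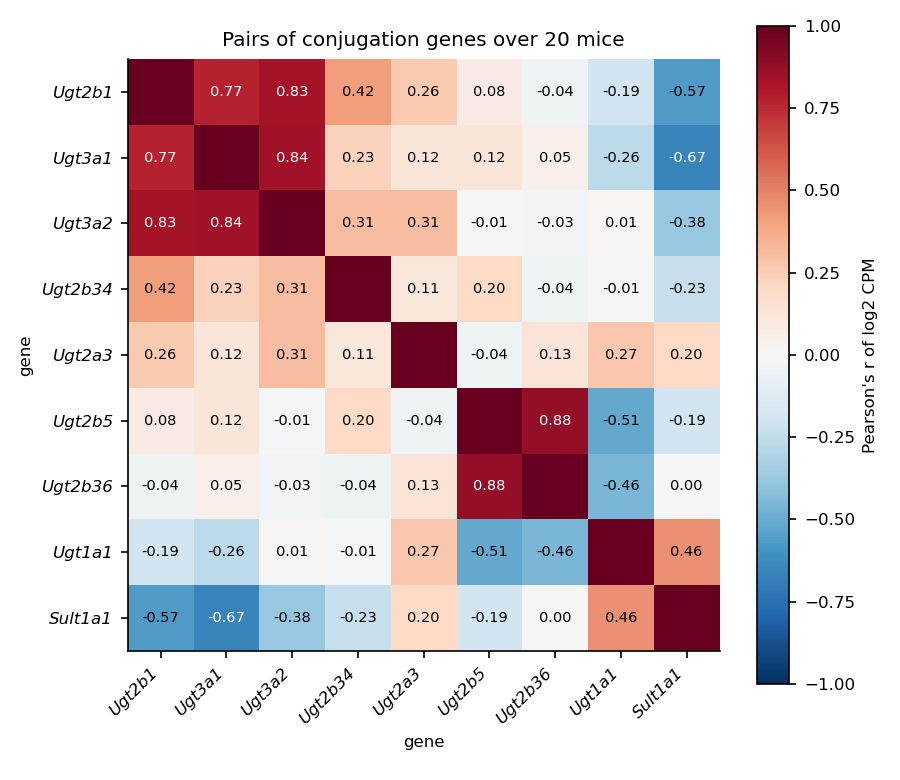
Pearson's r of log2 CPM over 20 mice for each pair of the 9 genes, from -1 (blue) to 1 (red). Ugt2b1, Ugt3a1 and Ugt3a2 form a block of 0.77 to 0.84, Ugt2b5 and Ugt2b36 a pair at 0.88, and Sult1a1 is at -0.67 to -0.38 with the block.

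The pair Ugt2b5 and Ugt2b36 also shares the sequence just before its start sites. RefSeq start-site windows (GRCm38.p6) were matched for 8 of the 9 members, all but Ugt3a2, and their upstream 250 bases were compared in all pairs. The longest identical run was 24 bases, between Ugt2b5 and Ugt2b36, and the next longest between any 2 members was 11. The run is shown in capitals within the last 150 bases before the start, at chr5:87140341-87140490 for Ugt2b5 and chr5:87092556-87092705 for Ugt2b36, both on the minus strand.

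Ugt2b5: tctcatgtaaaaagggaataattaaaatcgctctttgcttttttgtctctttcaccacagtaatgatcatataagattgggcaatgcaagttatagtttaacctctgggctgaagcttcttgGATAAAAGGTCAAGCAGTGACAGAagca
Ugt2b36: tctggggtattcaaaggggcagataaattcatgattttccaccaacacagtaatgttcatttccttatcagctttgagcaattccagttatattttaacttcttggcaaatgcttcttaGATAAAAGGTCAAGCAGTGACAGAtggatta

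Of the 32851 windows of the table, 3 hold this run on either strand: these 2 and Ugt2b37. A further 6 short motifs were searched on both strands of the 250 bases. The HNF1 half-site GTTAAT was in 4 of 8 members (Ugt1a1, Ugt2a3, Ugt3a1 and Sult1a1) and in 6.4% of all windows, TATAAA in 1 of 8 (Ugt3a1) and 12.4%, and the D-box TTATGTAA in 1 of 8 (Ugt2b1) and 0.8%. The antioxidant response element TGACNNNGC (10.2% of all windows), the xenobiotic response core GCGTG (28.2%) and the E-box CACGTG (6.0%) were in 0 of 8. A match or its absence describes these letters in this window and nothing more.

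The Ugt2b1 set followed the male-type score of the libraries, which was built from 8 genes outside the 9 (Elovl3, Cyp2d9, Cyp4a12a, Cyp7b1, Mup20, Slco1a1, C6 and Hsd3b5). Over 20 mice r with the score was 0.85 for Ugt3a1 (rho 0.73, permutation p = 0.0002, adjusted over 9 genes 0.0009), 0.80 for Ugt2b1 (rho 0.88, permutation p = 6e-05, adjusted 0.00054) and 0.70 for Ugt3a2 (rho 0.53, permutation p = 0.00136, adjusted 0.00306). It was -0.65 for Sult1a1 (rho -0.67, permutation p = 0.00074, adjusted 0.00222) and -0.52 for Ugt1a1 (rho -0.54, permutation p = 0.0149, adjusted 0.0268). Without Control replicate 3 and Sirt2-/-/CE replicate 20, the 2 mice farthest from the median score, r was 0.81 for Ugt3a1, 0.92 for Ugt2b1, 0.68 for Ugt3a2 and -0.54 for Sult1a1, and -0.21 for Ugt1a1, so the relation of Ugt1a1 rests on those 2 mice. For Ugt2b5, Ugt2b36, Ugt2b34 and Ugt2a3, r ran from -0.02 to 0.44, with no adjusted permutation p under 0.05.

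**Figure D5:**
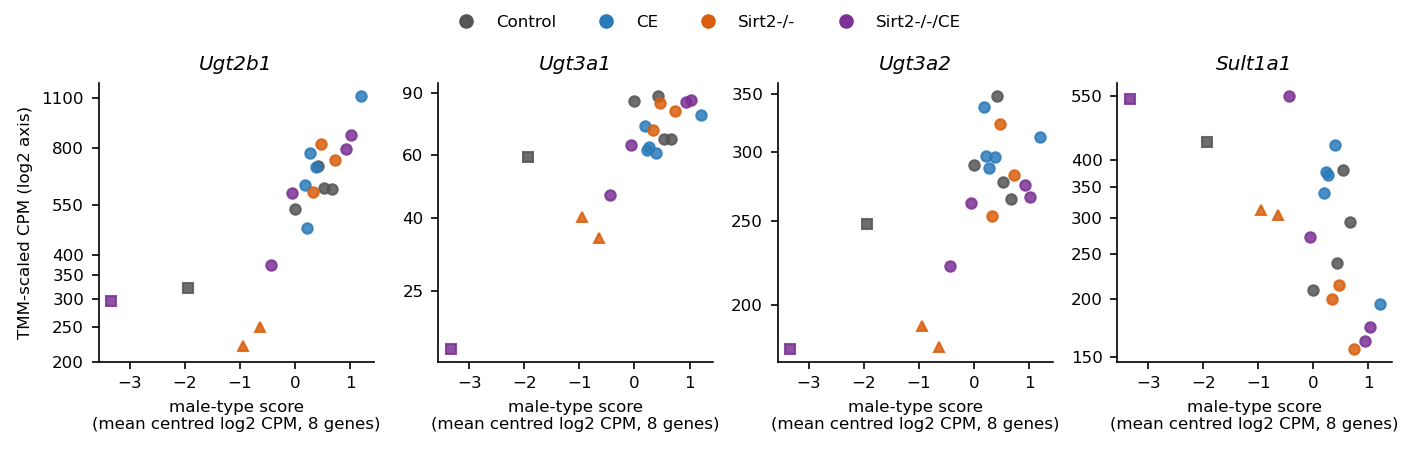
CPM (log2 axis) of 4 genes against the male-type score, the mean centred log2 CPM of 8 other genes, in 20 livers coloured by group. Ugt2b1, Ugt3a1 and Ugt3a2 are higher and Sult1a1 lower where the score is higher; squares are Control replicate 3 and Sirt2-/-/CE replicate 20, and triangles Sirt2-/- replicates 14 and 15.

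The clock score falls into 2 clusters of 4 and 16 mice, so no correlation was taken over all 20. Within the 16, r ran from -0.22 for Ugt2b34 to 0.45 for Ugt2a3 (permutation p = 0.0802, adjusted over 9 genes 0.722). The 4 low mice did not share a level of Ugt2b1: CE replicate 9 and Sirt2-/-/CE replicate 19 ranked 20 and 17 from the lowest of 20, and Sirt2-/- replicates 14 and 15 ranked 2 and 1. For Ugt1a1 all 4 ranked between 2 and 6.

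The genes most like each member, by r of log2 CPM over 20 libraries among 10590 genes of 1 FPKM or more, are given as a description. For Ugt2b1 they were Ulk2 (0.94), Cyp4v3 (0.92) and Slc22a30 (0.92), the highest values for any member. Hsd3b5 (0.91), Gid4 (0.88) and Zbtb38 (0.86) stood closest to Ugt3a1, and mt-Tc (0.88), March8 (0.88) and mt-Ty (0.87) to Ugt3a2. For Ugt2b5 the first was Ugt2b36 (0.88), followed by Gstp1 (0.85) and WI1-1003N17.1 (0.85), and for Ugt2b36 Ugt2b5, Cebpe (0.80) and WI1-1003N17.1 (0.79). The nearest to Sult1a1 were F7 (0.86), Ces1c (0.83) and Atp6v1d (0.83), to Ugt2b34 Nup205 (0.86), Nfic (0.86) and Ahctf1 (0.84), to Ugt2a3 Clcn2 (0.82), Galm (0.82) and Ngef (0.79), and to Ugt1a1 Csnk1g3 (0.77), Dgat2 (0.74) and Mpc1-ps (0.73).

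Around the 9 genes, few of the related genes passed the test, and those that did passed in Sirt2-/- against Control or in the average over treatments. Of the other UGT genes, 11 of 13 in the table were tested, of which 2 had an unadjusted p under 0.05 in Sirt2-/- against Control by edgeR (14.9% of all genes) and 1 passed the adjusted test (0.89% of all genes). That 1 rose: Ugt1a9, a phenol UGT, at 105, 70.2, 93.5, 102 and 95.9 CPM in Control and 117, 125, 200, 255 and 250 in Sirt2-/- (log2 fold change 1.02, edgeR adjusted p = 0.0472). All 5 Sirt2-/- livers were above all 5 Control livers. With cold, Ugt1a9 was at 114 to 138 CPM in CE, also above every Control liver, and at 79 to 186 in Sirt2-/-/CE. The shared exons named above apply to it too. Ugt1a5, which has the same shared exons, went the other way, from 44.1 to 145 CPM in Control to 0.949 to 44.2 in Sirt2-/-. The part of the division of shared reads in these values was not tested. Of the other SULT genes, 7 of 20 were tested, 2 had an unadjusted p under 0.05 in the same comparison and 1 passed, against the same shares. Sult1b1, which sulfates phenols and thyroid hormone, was the one that fell (30.1, 33.8, 36.1, 23.1 and 29.9 CPM in Control, 21.8, 13.8, 20.1, 11.2 and 11.4 in Sirt2-/-, log2 fold change -0.97, edgeR adjusted p = 0.0407). With cold it was at 13 to 24.9 CPM in CE and 20.1 to 33 in Sirt2-/-/CE, so the deletion livers were not lower there. The highest other SULTs by mean FPKM were Sult2a8 (335), Sult1d1 (58.6), Sult5a1 (9.26), Sult1b1 (8.53) and Sult2a7 (2.99), and the highest other UGTs Ugt1a9 (60.3), Ugt2b35 (53.5), Ugt1a6a (53.1), Ugt2b38 (43.1) and Ugt1a6b (39.8).

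RNA was also measured for 12 genes listed around the supply of the 2 donor molecules. The donors themselves were not measured, and the role of each listed gene in their supply was not tested. Of 5 genes listed with UDP-glucuronic acid, 0 of 5 passed in any comparison. Their mean FPKM ran from 113 for Ugp2 through 63.8 for Ugdh, 30.4 for Slc35b1 and 23.6 for Slc35d1 to 9.02 for Slc35d2. At an unadjusted p under 0.05, edgeR gave 3 of 5 in CE against Control (10.7% of all genes), 3 of 5 for cold averaged over genotypes (9.48%), 1 of 5 in each of Sirt2-/- against Control (14.9%), Sirt2-/-/CE against Sirt2-/- (7.25%) and the interaction (8.34%), and 0 of 5 in the other 2 comparisons. Of 7 genes listed with PAPS, edgeR gave 4 at an unadjusted p under 0.05 in Sirt2-/- against Control (14.9% of all genes). It gave 2 for the deletion averaged over treatments (13.8%) and 0 or 1 in each other comparison. One passed an adjusted test: Papss1, a PAPS synthase, fell with the deletion averaged over both treatments (1 of 7 against 0.186% of all genes, log2 fold change -0.89, edgeR adjusted p = 0.0277). It was at 9.39 to 10.2 CPM in Control, 4.27 to 16.3 in CE, 4.66 to 5.81 in Sirt2-/- and 5.30 to 7.13 in Sirt2-/-/CE, and apart from CE replicate 7, the lowest of the 20, every wild-type liver was above every deletion liver. Papss2, the more abundant PAPS synthase at 44.3 mean FPKM, and Slc26a1 (41.5), Bpnt1 (29.4), Slc35b2 (14.2) and Impad1 (5.89) did not pass.

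In the further lists, Gusb (the β-glucuronidase, which splits glucuronides) and the carboxylesterases Ces3a and Ces1d did not pass in any of the 7 comparisons by edgeR, and 0 of 8 transporters of conjugates and 0 of 14 nuclear receptors and other regulators passed in any. In Sirt2-/- against Control, 5 of 16 other phase II enzymes had an unadjusted p under 0.05 by edgeR (14.9% of all genes) and 1 passed the adjusted test (0.89% of all genes): Hnmt, the histamine methyltransferase, fell (28.3 ± 7.59 CPM in Control, 13.7 ± 4.61 in Sirt2-/-, SD, n = 5 each, log2 fold change -1.04, edgeR adjusted p = 0.0407). Of 10 receptor target genes, a list that joins targets of different regulators, 9 had a positive log2 fold change in Sirt2-/- against Control (median 0.72). Of all genes, 51.7% were positive (median 0.02). By edgeR, 5 of the 10 had an unadjusted p under 0.05 (14.9% of all genes) and 2 passed the adjusted test (0.89% of all genes). Those 2 rose: Cyp4a14, a target of PPARα (log2 fold change 2.97, edgeR adjusted p = 0.0199, and 2.15, adjusted p = 0.0102, averaged over both treatments), and Srxn1, a target of Nrf2 (1.01, edgeR adjusted p = 0.043). Hnmt and Srxn1 did not pass averaged over both treatments. With cold, Sirt2-/-/CE against CE, no gene of these 2 lists passed by edgeR (0.0128% of all genes). At an unadjusted p under 0.05 it gave 2 of 16 other phase II enzymes and 1 of 10 receptor targets (6.09% of all genes). The calls for Ugt1a9, Sult1b1, Hnmt, Srxn1 and Cyp4a14 in Sirt2-/- against Control did not hold without Sirt2-/- replicates 14 and 15 (log2 fold changes 0.66, -0.72, -0.78, 0.52 and 2.56, adjusted p = 0.434, 0.358, 0.349, 0.446 and 0.184 by edgeR), nor did those averaged over treatments for Papss1 (-0.87, edgeR adjusted p = 0.128) and Cyp4a14 (1.93, edgeR adjusted p = 0.0688). With the clock score as a covariate, these calls did not hold either: the adjusted p by edgeR was 0.415 for Ugt1a9, 0.321 for Sult1b1, 0.345 for Hnmt, 0.573 for Srxn1 and 0.159 for Cyp4a14 in Sirt2-/- against Control, where 0 genes of 15616 were then called, Sirt2 included, and 0.117 for Papss1 and 0.0801 for Cyp4a14 averaged over treatments. With 1 library left out at a time, the adjusted p reached 0.05 or more in 15 of 20 refits for Ugt1a9, 17 for Srxn1, 11 for Sult1b1, 9 for Hnmt and 7 for Papss1, and in Sirt2-/- against Control for Cyp4a14 without Control replicate 2 (0.062) or Sirt2-/- replicate 14 (0.0667). The direction was the same in every one of these refits. Without Control replicate 3 and Sirt2-/-/CE replicate 20 the adjusted p by edgeR was 0.109 for Ugt1a9, 0.103 for Sult1b1, 0.0945 for Hnmt and 0.126 for Srxn1.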

How the data were processed

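Per the labels, poly(A) RNA of 20 mouse livers was fragmented, primed with random hexamers and sequenced. The authors deposited 1 table with read counts and FPKM values for 45306 genes in each library, after 9 lines without a gene were set aside. The build was mm10 in the submitters' processing notes. The aligner, counter, strand setting and annotation were not given in the sources used here, so reads of a gene and of one on the other strand may not be told apart. The FPKM values were deposited by the authors scaled to gene length and library size. They served to compare levels between genes, to set the floor of 1 FPKM for the genes most like each member and, as log2(FPKM + 1), for 1 alternative test.

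Counts were tested with edgeR 4.0.16 in R 4.3.3: TMM scaling, filterByExpr (minimum count 10, minimum total 15), which left 15616 genes, and the quasi-likelihood test in 1 fit of all 20 libraries with 4 groups, without covariates. P-values were adjusted by Benjamini-Hochberg over all genes tested, with a threshold of 0.05. CPM were computed from the counts with the TMM-scaled library sizes. DESeq2 1.42.0 and limma 3.58.1 (voom with sample quality weights) served as alternatives. Correlations used 100000 permutations (SciPy 1.17.1), two-sided. Sequences came from GENCODE vM21 and RefSeq, and motifs were searched by exact match. The test scripts were tested on simulated data.

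Genes were named by a rule: the 9 members, the 3 genes most like each of them by correlation, and the related genes that passed the test or were highest in their list. The members and lists were chosen with earlier results of these data known. Total counts ran from 35499796 to 53917339. No pair of the 190 pairs of libraries agreed within sampling noise.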

Additional observations from a re-analysis of the deposited data

Results flagged for a closer look

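In 40 groups of 5 values, those of the 9 genes and of Sirt2 in each group of mice, 1 value stood far from the others of its group. Sirt2 in Sirt2-/-/CE replicate 16 was at 27.5 CPM, against 21.1 CPM for the next highest liver of the group, a gap of 0.753 of the group's range (critical value 0.71). Chance flags about 1 in 20 groups. No value of the 9 conjugation genes was marked in this way, although Ugt3a1 in Sirt2-/-/CE replicate 20 was at 17.2 CPM against 46.5 for the next. No interaction of deletion and cold passed the test for a member in edgeR.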

How the results depend on the processing

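The count of 0 of 9 members with an adjusted p under 0.05 held in each of the 7 comparisons under every alternative: DESeq2 size factors, upper-quartile scaling, library size only, DESeq2, limma voom with sample quality weights, no filter, 10 counts in every library, only the 2 groups compared (for the 4 comparisons of 2 groups), log2(FPKM + 1), the clock score as a covariate, each library left out in turn, and, chosen after seeing the data, leaving out Sirt2-/- replicates 14 and 15, leaving out Control replicate 3 and Sirt2-/-/CE replicate 20, and summing the Ugt1a genes. The lowest adjusted p of any member was 0.061 (Ugt2a3). Over all genes, calls in Sirt2-/- against Control ranged from 0 to 906, with 139 by edgeR, 607 by DESeq2 and 906 by limma voom, and in CE against Control from 0 to 540, with 1 by edgeR, 169 by DESeq2 and 540 by limma voom. They ranged from 0 to 7 in Sirt2-/-/CE against Sirt2-/-, from 0 to 31 in Sirt2-/-/CE against CE, from 2 to 304 for the deletion averaged over treatments, from 0 to 76 for cold averaged over genotypes and from 0 to 41 for the interaction. Calls of related genes in Sirt2-/- against Control were lost too. Without the filter the adjusted p was 0.0749 for Ugt1a9, 0.0632 for Sult1b1, 0.061 for Hnmt and 0.0663 for Srxn1, and with only the 2 groups compared 0.103, 0.101, 0.109 and 0.124. With upper-quartile scaling it was 0.0509 for Ugt1a9 and Srxn1, and with limma voom 0.0513 for Ugt1a9. Papss1, averaged over treatments, was at 0.0644 with log2(FPKM + 1). Of 63 fold changes of members, 27 changed sign under some alternative, and the largest of them was 0.389 in size. The cause was not tested. With upper-quartile scaling the values with the other sign were 0.041 for Sult1a1 in Sirt2-/-/CE against CE. With scaling by library size only the values with the other sign were -0.001 for Ugt2b36 in CE against Control, 0.033 for Ugt2b1 in Sirt2-/- against Control, -0.025 for Ugt2a3 in Sirt2-/-/CE against Sirt2-/-, 0.036 for Ugt2a3 in Sirt2-/-/CE against CE, 0.004 for Ugt2b34 in Sirt2-/-/CE against CE, 0.056 for Sult1a1 in Sirt2-/-/CE against CE and -0.007 for Ugt3a2 in cold averaged over genotypes. With limma voom the values with the other sign were 0.053 for Ugt2b1 in Sirt2-/- against Control, -0.078 for Ugt1a1 in Sirt2-/-/CE against CE, 0.007 for Ugt3a1 in Sirt2-/-/CE against CE and -0.205 for Sult1a1 in the interaction. With log2(FPKM + 1) and limma the values with the other sign were -0.022 for Ugt2a3 in Sirt2-/-/CE against Sirt2-/-, 0.034 for Ugt2a3 in Sirt2-/-/CE against CE, -0.004 for Ugt3a2 in cold averaged over genotypes and -0.108 for Ugt3a1 in the interaction. With the clock score as a covariate the values with the other sign were 0.052 for Ugt1a1 in CE against Control, 0.017 for Ugt2b1 in Sirt2-/- against Control, 0.021 for Ugt1a1 in deletion averaged over treatments, 0.037 for Ugt2b34 in cold averaged over genotypes and -0.013 for Ugt3a1 in the interaction. Without Sirt2-/- replicates 14 and 15 the values with the other sign were 0.369 for Ugt2b1 in Sirt2-/- against Control, 0.097 for Ugt3a1 in Sirt2-/- against Control, 0.005 for Ugt3a2 in Sirt2-/- against Control, -0.077 for Ugt2a3 in Sirt2-/-/CE against Sirt2-/-, -0.314 for Ugt2b1 in Sirt2-/-/CE against Sirt2-/-, 0.005 for Ugt2b1 in deletion averaged over treatments, -0.078 for Ugt3a2 in cold averaged over genotypes and -0.286 for Ugt3a1 in the interaction. Without Control replicate 3 and Sirt2-/-/CE replicate 20 the values with the other sign were -0.042 for Ugt2b5 in CE against Control, -0.028 for Ugt2b36 in CE against Control, 0.185 for Ugt3a1 in Sirt2-/-/CE against Sirt2-/-, 0.065 for Ugt3a2 in Sirt2-/-/CE against Sirt2-/-, -0.07 for Ugt1a1 in Sirt2-/-/CE against CE, 0.061 for Ugt3a1 in Sirt2-/-/CE against CE, 0.063 for Ugt2b1 in the interaction and 0.016 for Ugt3a2 in the interaction. With 1 library left out, the lowest and highest fold changes were -0.25 to 0.172 for Sult1a1 in Sirt2-/-/CE against CE, -0.07 to 0.198 for Ugt1a1 in Sirt2-/-/CE against CE, -0.04 to 0.168 for Ugt2a3 in Sirt2-/-/CE against Sirt2-/-, -0.304 to 0.11 for Ugt2b1 in Sirt2-/- against Control, -0.055 to 0.368 for Ugt2b1 in Sirt2-/-/CE against Sirt2-/- and -0.078 to 0.034 for Ugt2b34 in cold averaged over genotypes. They were -0.027 to 0.12 for Ugt2b34 in deletion averaged over treatments, -0.035 to 0.084 for Ugt2b36 in CE against Control, -0.042 to 0.234 for Ugt2b5 in CE against Control, -0.048 to 0.129 for Ugt2b5 in Sirt2-/-/CE against CE, -0.129 to 0.009 for Ugt2b5 in cold averaged over genotypes and -0.337 to 0.061 for Ugt3a1 in Sirt2-/-/CE against CE. For the rest they were -0.22 to 0.185 for Ugt3a1 in Sirt2-/-/CE against Sirt2-/-, -0.172 to 0.03 for Ugt3a1 in cold averaged over genotypes, -0.097 to 0.309 for Ugt3a1 in the interaction (0.377 without Control replicate 3 and Sirt2-/-/CE replicate 20), -0.123 to 0.091 for Ugt3a2 in Sirt2-/-/CE against Sirt2-/- and -0.012 to 0.095 for Ugt3a2 in cold averaged over genotypes. For the interaction of Ugt2b1 and of Ugt3a2, leaving out 1 library gave -0.469 to -0.037 and -0.229 to -0.008. No paired analysis was possible because the replicate numbers run from 1 to 20 and no 2 groups share one. Each group had 5 livers, and a change past the half-width of its unadjusted interval could still miss the adjusted threshold, as Ugt2a3 and Ugt3a2 did.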
